A study of Mus musculus with 16 samples.

Results

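The Ly49 receptor family is represented here by 6 of the 9428 genes in the lymph node gene table, namely Klra1, Klra3, Klra6, Klra7, Klra9 and Klre1. They were taken by name, as the Klra rows of the table together with Klre1. The family itself was chosen with earlier results of these data known. Klra1 encodes Ly49A, Klra3 encodes Ly49C, Klra6 encodes Ly49F, Klra7 encodes Ly49G and Klra9 encodes Ly49I. Klre1 is not a Ly49 gene in the strict sense. It encodes NKG2I/KLRE1, another lectin-like receptor of the same natural killer gene complex, and results are therefore also given for the 5 Klra genes alone.

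Ly49 receptors are C-type lectin-like membrane proteins of rodents that bind MHC class I molecules. Most of them, including those encoded by the 5 Klra genes here, carry an inhibitory motif in the cytoplasmic tail that recruits tyrosine phosphatases, whereas activating relatives signal through adaptor proteins. In natural killer cells each gene is switched on in only part of the cells, so that cells carry different combinations. Subsets of memory-phenotype CD8 T cells are also known to carry them.

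The study profiled CD8+CD44+ T cells that were sorted from C57BL/6 mice aged 16 weeks. The mice had melanoma-associated vitiligo, and the cells were taken 45 days after tumor surgery, from the lymph node that drains the tumor and, as its match, from skin affected by vitiligo. Its 16 samples were 4 libraries (lymph node RNA, lymph node T cell receptor, skin RNA and skin T cell receptor), each run on 4 lanes whose values the authors pooled. The sources used here do not state how many mice each library pooled, and skin RNA was not analysed here. The cells are all from 1 lymph node RNA library and have the same genotype, treatment and time, so that no untreated group could be compared. The comparisons below set cells with a UMI (a unique molecular identifier, which marks 1 captured RNA molecule) of at least 1 of the 6 genes against cells without, within that library. There is therefore no replicate check and no test, and all intervals are 95% intervals that cover counting error only.

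The RNA counts covered 3266 cells and 14556622 UMIs, with a median of 4423 UMIs per cell and a range of 461 to 12576. The sort genes were present: Cd3e was seen in 96.9% of the 650 cells with a receptor gene and in 94.9% of the 2616 cells without one, and Cd8b1 in 96.9% and 96.5%. Cd8a was seen in 80.9% of cells with a receptor gene and 83.6% of cells without. Cd44 was detected in only 30.2% of cells with a receptor gene and 25% of cells without, at 72.5 and 71.7 counts per 1000000 UMIs (CPM). A T cell receptor contig was attached to 601 of the 650 cells with a receptor gene and to 2363 of the 2616 cells without. Of the cells in the gene table, 12 had barcodes that also occurred among the skin receptor barcodes.

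The 5 Klra genes lie within 374 kb on the minus strand of chromosome 6 (mm10, GENCODE M21 gene bounds). In order of coordinates they are Klra6 at chr6:130013033-130026954, Klra9 at chr6:130178675-130193112, Klra7 at chr6:130218605-130233322, Klra3 at chr6:130323289-130337574 and Klra1 at chr6:130363917-130386874. Klre1 lies on the plus strand at chr6:129577905-129585827, 427 kb from Klra6. The annotation holds 11 Klra genes, of which the other 6 were not analysed here.

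Because several members were found in the same cells, the stretches before their transcription starts are shown. Windows from 250 bases before to 50 bases after the start (RefSeq, GRCm38.p6) of Klra6, Klra9, Klra7 and Klra3, 1 for each gene, share a block of 16 letters, CTCTTTTTG followed by CTTTGNT, which occurs in 4 of 32851 RefSeq promoter windows on the gene's own strand, all of them in these 4 genes. The block was picked after the sequences were seen. Below, 130 bases around it are given 5′ to 3′ on the minus strand with the last 7 letters of the block in capitals, for Klra6 (chr6:130027031-130027160), Klra9 (chr6:130193108-130193237), Klra7 (chr6:130233369-130233498) and Klra3 (chr6:130337603-130337732).
Klra6: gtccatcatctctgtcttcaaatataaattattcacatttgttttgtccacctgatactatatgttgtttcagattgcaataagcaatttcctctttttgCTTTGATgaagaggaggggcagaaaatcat
Klra9: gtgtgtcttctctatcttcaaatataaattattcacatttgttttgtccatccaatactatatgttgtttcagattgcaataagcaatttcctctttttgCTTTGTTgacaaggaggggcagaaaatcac
Klra7: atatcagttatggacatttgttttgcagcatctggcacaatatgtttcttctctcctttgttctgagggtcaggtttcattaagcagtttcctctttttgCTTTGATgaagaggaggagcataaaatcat
Klra3: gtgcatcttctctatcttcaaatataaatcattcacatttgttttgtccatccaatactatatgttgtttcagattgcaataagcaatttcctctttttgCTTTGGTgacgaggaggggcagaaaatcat
Klra6 and Klra7 had the same 7 letters, CTTTGAT, a form of the core recognised by TCF/LEF factors. Counting from 1 at the first capital, Klra9 differed from Klra6 by A6T and Klra3 by A6G. Other forms of that core were not searched for, so the A6T of Klra9 does not show that it lacks one. The capitals began 106 bases before the start in Klra6, 76 in Klra7, 25 in Klra9 and 6 in Klra3, so that the printed stretches of Klra9 and Klra3 run past their starts. CTTTGAT on either strand was found in 3.73% of all 32851 windows, a share that leaves out other forms of the core. A match of letters does not show a site in use. Over the aligned bases of the full windows, Klra3 and Klra9 were 96.4% identical, Klra6 and Klra3 93.0%, Klra6 and Klra9 92.6%, and Klra6 and Klra7 83.3%. RefSeq gives Klra7 a second window, chr6:130231638-130231937, which did not hold the block, and neither did the windows of Klra1 and Klre1.

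The transcripts are also alike, which bears on the counting. Klra3 and Klra9 were 96.2% identical over aligned bases, Klra6 and Klra9 91.4%, Klra3 and Klra6 90.6%, and Klra1 and Klra7 88.9%. The 90-base windows of each transcript were compared, for exact matches only, with the protein-coding transcripts of all annotated Klra genes and Klre1. Of these windows, 97.0% for Klra3 and 97.4% for Klra9 were found in no other of these genes, and 100% for the remaining 4 members. The sources used here do not state how the authors' counting divided reads among near-identical genes. Values of Klra3 and Klra9 in particular, which had some windows found in another of these genes, are uncertain in this respect. Which gene held those windows was not recorded.

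A UMI of at least 1 of the 6 genes was found in 650 of 3266 cells, or 19.9% (18.5 to 21.3%). Klra7 was found in the most cells, 262 or 8.02% (7.11 to 9.01%), with 428 UMIs in all. Klra3 followed with 205 cells or 6.28% (5.47 to 7.16%) and 370 UMIs, and Klre1 with 200 cells or 6.12% (5.33 to 7.0%) and 291 UMIs. Klra6 was found in 170 cells or 5.21% (4.47 to 6.02%), with 233 UMIs. Klra1 was found in 49 cells or 1.5% (1.11 to 1.98%), with 97 UMIs, and Klra9 in 39 cells or 1.19% (0.850 to 1.63%), with 55 UMIs. In this order of shares, neighbours overlapped in their intervals except Klra6 and Klra1. The shares are of cells with a captured molecule and are not a comparison of levels per transcript length.

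Most positive cells carried a single molecule. The share of positive cells with exactly 1 UMI was 53.1% for Klra1, 58.5% for Klra3, 75.3% for Klra6, 69.5% for Klra7, 69.2% for Klra9 and 69.5% for Klre1. Klra1 and Klra3 had the highest mean number of UMIs per positive cell, 1.98 and 1.8, against 1.37 for Klra6, and 1 cell held 17 UMIs of Klra3. At these low counts a cell without a UMI cannot be called a cell without the receptor.

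Detection was higher in deeper cells. With cells in 4 depth groups of nearly equal size, by UMI count, the share with at least 1 of the 6 genes was 8.94%, 20.0%, 22.1% and 28.6% from the shallowest to the deepest. Klra7 was found in 3.67%, 7.95%, 8.33% and 12.1% of the cells of those groups, Klre1 in 2.82%, 4.65%, 7.60% and 9.45%, and Klra3 in 2.20%, 6.48%, 7.84% and 8.59%. Klra1 was found in 0.612%, 1.71%, 1.96% and 1.72%, and showed little change over the 3 deeper groups. When each cell was thinned to 1500 UMIs, which left out 176 shallower cells, 10.7% of 3090 cells (9.64 to 11.9%) had at least 1 of the 6 genes. The thinned shares were 3.59% for Klra7, 3.01% for Klra3, 2.39% for Klre1, 2.33% for Klra6, 0.939% for Klra1 and 0.518% for Klra9, in the same order as before thinning.

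**Figure D1:**
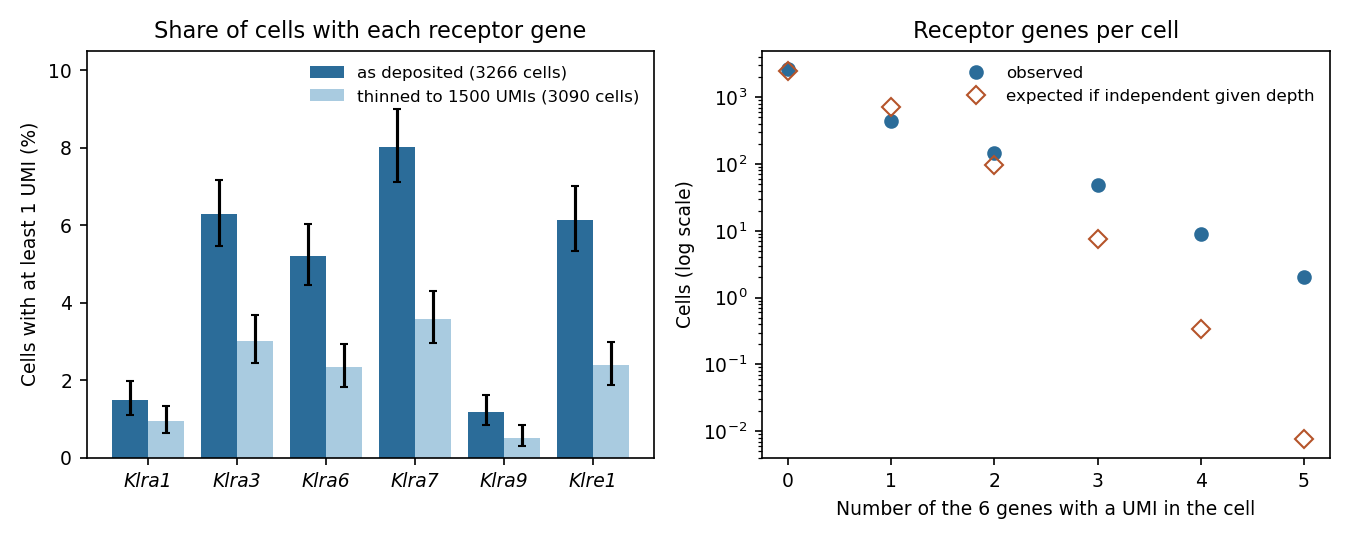
Left, share of cells with at least 1 UMI of each gene in percent, as deposited (dark bars) and after thinning every cell to 1500 UMIs (light bars), with exact 95% intervals. Right, number of cells on a log scale by how many of the 6 genes they held, observed (circles) and expected if the genes were independent given each cell's depth (diamonds). Observed cells lie above the expected number from 2 to 5 genes, with 48 against 7.51 cells at 3 genes.

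Receptor genes were found together in more cells than depth alone gave. Of the 650 positive cells, 447 held 1 of the 6 genes, 144 held 2, 48 held 3, 9 held 4 and 2 held 5. No cell held all 6, which at 3 counts allows a share of up to 0.0919%. The expected numbers came from a model in which each gene was detected independently, at a rate per UMI of the cell set so that the number of positive cells matched. At least 1 gene was observed in 650 cells where this model gave 812. At least 2 genes were observed in 203 cells where it gave 105, a ratio of 1.94 (1.68 to 2.23), and at least 3 genes in 59 cells where it gave 7.85, a ratio of 7.51 (5.72 to 9.69). Among the 5 Klra genes alone, 131 cells held at least 2 where 62.7 were expected, a ratio of 2.09 (1.75 to 2.48). After thinning, 56 cells held at least 2 of the 6 genes and 19 were expected, a ratio of 2.95 (2.23 to 3.83). Of the 315 barcodes with 2 or more TRB sequences, which can hold 2 cells, 6.98% had at least 2 of the 6 genes, and of the 2587 with 1 TRB sequence 6.15% had them, at median depths of 5842 and 4445 UMIs.

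The cells with receptor genes fell into 39 combinations. The most frequent were Klra3 alone with 144 cells, Klra7 alone with 136, Klre1 alone with 86 and Klra6 alone with 47. Of the combinations of several genes, Klra6 with Klra7 and Klra7 with Klre1 had 31 cells each, Klra6 with Klre1 had 23, and Klra6, Klra7 and Klre1 together had 16. The members differed in how often they stood alone. Klra3 was the only receptor gene in 70.2% of its cells, whereas Klra6 was the only one in 27.6% of its cells and Klra1 in 34.7%.

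Over all 15 pairs there were 362 pair detections against 121 expected, a ratio of 2.98 (2.68 to 3.31), and the interval of 11 pairs lay above 1. Among all genes tested against a receptor gene, the share with a ratio of at least 1.5 ran from 1.72% for Klra7 to 5.1% for Klra9. Klra6, the gene of Ly49F, had ratios from 2.30 to 5.96 with the other 5 genes. Klra6 and Klra7 were found together in 68 cells where 16.1 were expected, a ratio of 4.23 (3.29 to 5.37). These 68 cells were 40.0% of the Klra6 cells and 26.0% of the Klra7 cells. Klra6 and Klre1 shared 55 cells with 12.3 expected, a ratio of 4.48 (3.37 to 5.83), and Klra7 and Klre1 shared 66 with 18.9 expected, a ratio of 3.50 (2.70 to 4.45).

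The rarer Klra1, the gene of Ly49A, was often found beside Klra7 and Klra6. It shared 23 of its 49 cells with Klra7, where 4.64 were expected (ratio 4.95, 3.14 to 7.43), and 18 with Klra6, where 3.02 were expected (ratio 5.96, 3.53 to 9.42). It shared 2 cells with Klra3, where 3.64 were expected, a ratio of 0.550 with an interval from 0.0666 to 1.99. Klra9 shared 14 of its 39 cells with Klra6, where 2.40 were expected (ratio 5.82, 3.18 to 9.77). Klra3 and Klra9, the most alike of the transcripts, were found together in 8 cells where 2.90 were expected (ratio 2.76, 1.19 to 5.44). For these, joint detection and reads of 1 gene counted to both cannot be told apart. Klra6 had none of its 90-base windows in another member. Only exact matches were compared, so this cannot show how reads with mismatches were counted.

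Several ratios of Klra3 were lower. Klra3 and Klra7, the most often detected members, were found together in 21 cells where 19.3 were expected, a ratio of 1.09 (0.672 to 1.66). Klra3 with Klre1 gave 26 cells against 14.8 expected (ratio 1.76, 1.15 to 2.58), and Klra3 with Klra6 gave 29 against 12.6 (ratio 2.30, 1.54 to 3.31). The 3 pairs among Klra1, Klra6 and Klra7 together had a ratio of 4.59 (3.77 to 5.54), whereas the 4 pairs of Klra3 with the other Klra genes had 1.56 (1.19 to 2.01). Klra7 with Klra9, a pair without Klra3, also had an interval that includes 1, with 7 cells against 3.70 expected (ratio 1.89, 0.761 to 3.90). These groupings of pairs were made after their values were seen.

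**Figure D2:**
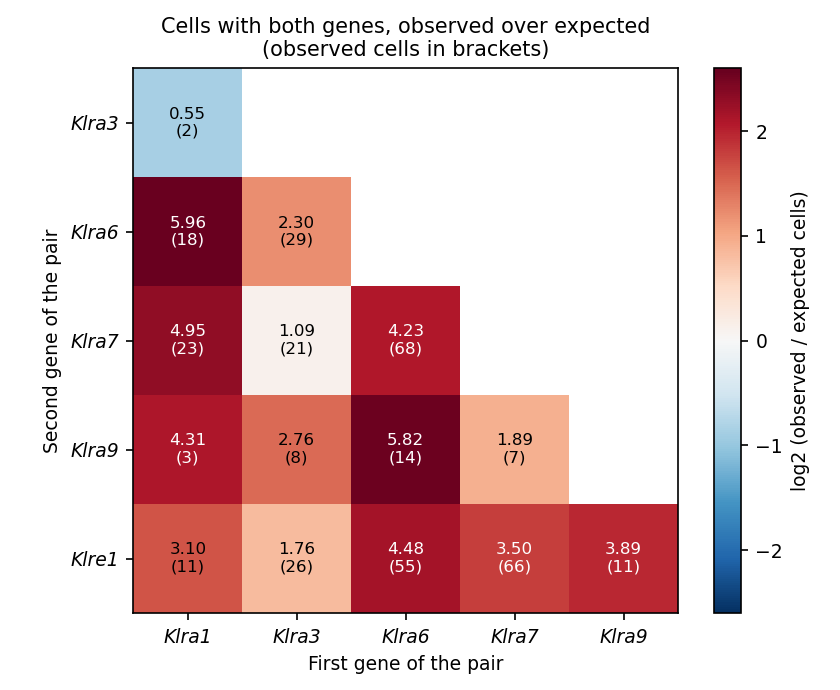
Each square gives, for a pair of receptor genes, the ratio of observed to expected cells with a UMI of both, with the observed number of cells in brackets. The colour is the log2 of that ratio, red above and blue below 0. The Klra6 row and column hold ratios from 2.30 to 5.96, whereas Klra3 with Klra7 lies at 1.09.

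The ratios were read against the same measure for each other gene with at least 5 expected cells. These genes were not matched for how often they were detected, and a gene found in most cells cannot reach 1.5. Among 8204 genes ranked by joint detection with Klra6, 2.01% reached a ratio of 1.5, and Klre1 ranked 1, Klra7 2 and Klra3 5. Among 8908 genes ranked with Klra7, 1.72% reached 1.5, and Klra6 ranked 1, Klre1 3 and Klra3 1968. Among 8502 genes ranked with Klre1, 2.34% reached 1.5, and Klra6 ranked 1, Klra7 2 and Klra3 55. Among 8551 genes ranked with Klra3, 1.79% reached 1.5, and Klra6 ranked 5, Klre1 32 and Klra7 1880. The background was 3.64% of 4700 genes for Klra1 and 5.1% of 3978 genes for Klra9, and the pairs of these rarer genes with other members fell short of 5 expected cells and were not ranked.

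Cells were also grouped into 7 clusters made without the Klr genes and without receptor segments. The receptor genes were unevenly spread over them. Cluster 0, led by Stmn1 and Arl4d, had at least 1 receptor gene in 193 of 556 cells, or 34.7% (30.8 to 38.8%), and at least 2 in 16.4%, and held 29.7% of all positive cells. Clusters 1 to 4 had shares of 19.8%, 20.4%, 18.1% and 24.7%. Cluster 6, led by Lgals3 and Gzma, had a receptor gene in 17 of 176 cells, or 9.66% (5.73 to 15%). Cluster 5, led by Nrn1, Wnt10a and Lag3, had one in 13 of 453 cells, or 2.87% (1.54 to 4.86%), which was the lowest share. The median depth was 4825 UMIs in cluster 0, 2678 in cluster 6 and 3202 in cluster 5, and after thinning the shares were 19.3%, 4.20% and 1.42%. No cell type that should lack these genes was part of the sort, so that cluster 5 gives the lowest level against which UMIs from free RNA can be set.

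Members differed in this as well. Klra6 was found in 12.1% of cluster 0 cells and in 3.95% of those of cluster 2, and Klre1 in 15.6% and 3.80%. Klra7 was found in 16.0% of cluster 0 cells and 7.29% of cluster 2 cells. For Klra3 the shares were closer, at 8.81% in cluster 0, 8.21% in cluster 2 and 8.66% in cluster 4. Its level was nonetheless highest in cluster 0, at 42.3 CPM against 29.9 in cluster 2 and 26.7 in cluster 4. When the expected number of joint detections was made from depth and cluster together, an alternative chosen after seeing the data, the ratio over all 15 pairs was 2.38, with 10 pairs above 1 in their interval. Klra6 with Klra7 then had a ratio of 3.24 (2.52 to 4.11) and Klra3 with Klra7 one of 0.938 (0.581 to 1.43).

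**Figure D3:**
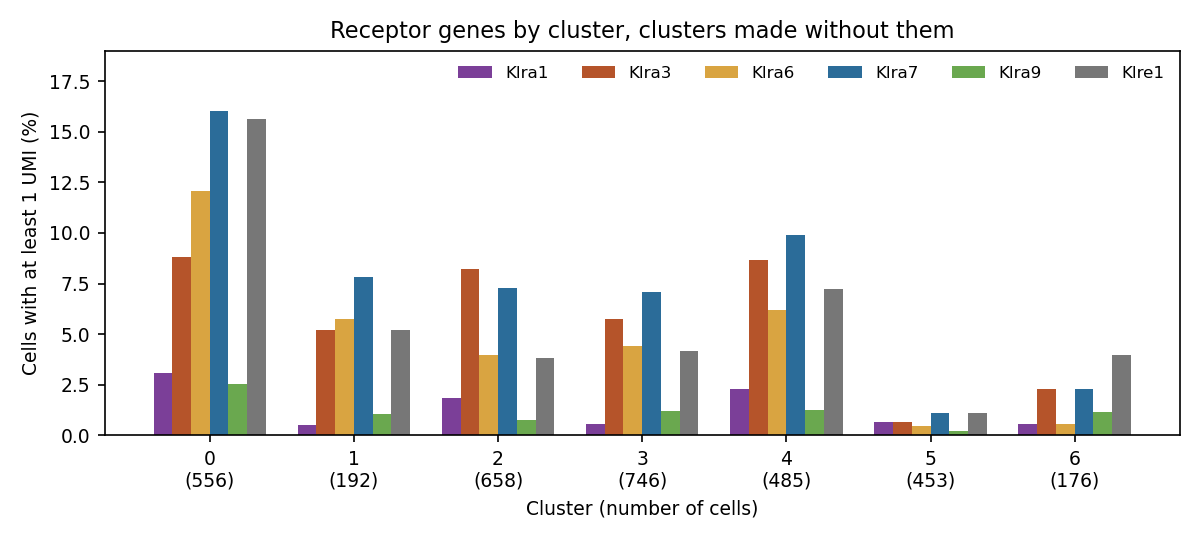
Share of cells with at least 1 UMI of each receptor gene in percent (bars, coloured by gene), by cluster, with the number of cells in brackets. All 6 genes have their highest share in cluster 0, where Klra3 is at 8.81%, with similar Klra3 shares in clusters 2 and 4. All 6 genes are at or below 1.10% in cluster 5.

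Cells with a receptor gene had more Gzmm, slightly more Ly6c2 and less Itgae than cells without. Gzmm encodes granzyme M, a serine protease of cytotoxic granules, and lies at chr10:79689020-79695261. It stood at 150 CPM (138 to 164) in cells with a receptor gene and 95.9 CPM (90.2 to 102) in cells without, a log2 ratio of 0.65 (0.49 to 0.80). It was found in 37.1% of cells with a receptor gene and 21.8% of cells without, and in 18.7% and 10.3% after thinning. Ly6c2 encodes Ly6C, a surface protein of memory-phenotype CD8 T cells, and lies at chr15:75108158-75111970. It stood at 2445 CPM in cells with a receptor gene and 1990 CPM in cells without, a log2 ratio of 0.30 (0.26 to 0.33), and was found in 98% and 83.9% of cells. Itgae encodes the alpha chain of CD103, an integrin that binds E-cadherin and marks tissue-resident T cells, and lies at chr11:73090583-73147446. It stood at 22.3 CPM (17.5 to 27.9) in cells with a receptor gene and 53.8 CPM (49.6 to 58.3) in cells without, a log2 ratio of -1.27 (-1.64 to -0.92).

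Read the other way, a receptor gene was found in 29.8% of the 810 cells with Gzmm and 16.7% of the 2456 cells without it. It was found in 22.5% of the 2831 cells with Ly6c2 and 2.99% of the 435 cells without. For Itgae the shares were 12% of 384 cells with it and 21.0% of 2882 cells without. These groups differed in depth: the median was 4618 UMIs in cells with Ly6c2 and 2465 in cells without. After thinning, the shares with a receptor gene were 13.9% with Gzmm and 9.60% without, 11.9% with Ly6c2 and 1.45% without, and 7.0% with Itgae and 11.2% without.

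The ratios of Gzmm spread more widely over the 6 genes than those of Ly6c2. Against cells without any of the 6 genes, the log2 ratio of Gzmm was 1.06 (0.59 to 1.5) in Klra9 cells, 0.94 (0.74 to 1.14) in Klra7 cells and 0.86 (0.62 to 1.08) in Klre1 cells. It was 0.45 (0.15 to 0.72) in Klra6 cells, 0.24 (-0.05 to 0.51) in Klra3 cells and 0.20 (-0.41 to 0.75) in Klra1 cells, the last 2 with intervals that include 0. For Ly6c2 all 6 ratios lay between 0.27 in Klra9 cells and 0.39 in Klra1 cells. Itgae was lowest in Klra7 cells, at 13.1 CPM and a log2 ratio of -2.04 (-2.81 to -1.37), and in Klra6 cells, at 13.6 CPM and -1.98 (-2.94 to -1.17). It stood at -1.08 in Klre1 cells and -0.76 in Klra3 cells, and the intervals for Klra9 and Klra1 cells included 0.

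Klra7 and Klra3 were then set against each other, a comparison chosen after seeing the pairs. In the 241 cells with Klra7 and no Klra3, Gzmm stood at 187 CPM, and in the 184 cells with Klra3 and no Klra7 at 108 CPM, a log2 ratio of 0.79 (0.45 to 1.14). Itgae stood at 11.8 and 32.2 CPM in these groups, a log2 ratio of -1.45 (-2.44 to -0.51), whereas Ly6c2 was at 2404 and 2470 CPM (-0.04, -0.12 to 0.04). Klra1 had 51 UMIs in the Klra7 cells and 2 in the Klra3 cells, and Klre1 had 86 and 24. The Klra9 ratio of -0.99 (-2.30 to 0.27) pointed to the Klra3 cells, with an interval that includes 0.

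By number of receptor genes, Gzmm stood at 95.9 CPM in cells with 0, 145 in cells with 1, 159 in cells with 2 and 168 in cells with 3 or more. The intervals of the last 3 overlapped. Ly6c2 stood at 1990, 2421, 2513 and 2462 CPM over the same steps, and here too the intervals of the last 3 overlapped. Itgae stood at 53.8, 24.5, 10.7 and 33.6 CPM, the last from 11 UMIs in 59 cells.

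**Figure D4:**
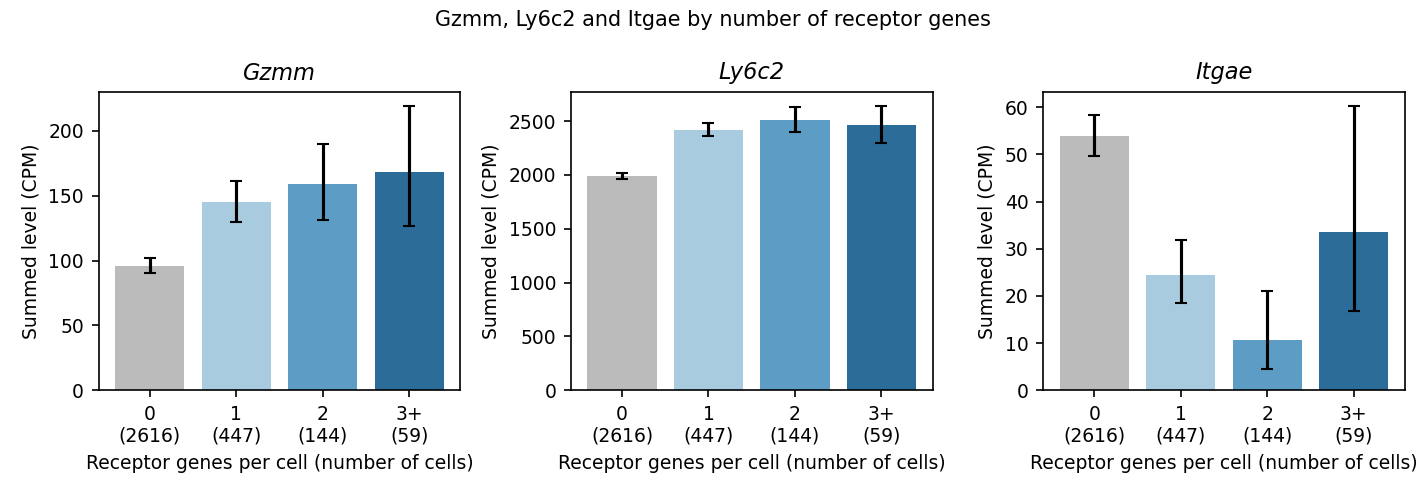
Summed level in CPM of Gzmm, Ly6c2 and Itgae in cells with 0, 1, 2 and 3 or more of the 6 receptor genes, with the number of cells in brackets and exact 95% counting intervals. Gzmm and Ly6c2 are lowest and Itgae highest in the 2616 cells without a receptor gene, and the bars with 1 or more genes overlap in their intervals for Gzmm and Ly6c2.

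Cluster and depth moved with these differences. Gzmm is one of the genes that lead cluster 0, and there it stood at 206 CPM in cells with a receptor gene and 192 CPM in cells without, a log2 ratio of 0.11 (-0.15 to 0.36). Its interval lay above 0 in clusters 1, 2, 4 and 5. The values were 158 and 100 CPM in cluster 1 (0.65, 0.04 to 1.24), 121 and 62.0 CPM in cluster 2 (0.97, 0.56 to 1.36) and 142 and 107 CPM in cluster 4 (0.41, 0.04 to 0.77). In cluster 5 they were 156 and 15.7 CPM (3.31, 2.25 to 4.31), from 14 UMIs in 13 cells with a receptor gene and 25 UMIs in 440 cells without. In cluster 3 the ratio was -0.01 (-0.44 to 0.40), and in cluster 6 it was 0.05 (-1.37 to 1.25).

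The differences in Ly6c2 were largest in the clusters with the fewest receptor genes. It stood at 2285 CPM in cells with a receptor gene and 783 CPM in cells without in cluster 5 (1.54, 1.32 to 1.76), and at 1721 and 1047 CPM in cluster 6 (0.72, 0.47 to 0.96). In cluster 4 the values were 2524 and 2124 CPM (0.25, 0.17 to 0.33). The ratio was 0.072 in cluster 0, 0.02 (-0.11 to 0.15) in cluster 1, 0.11 (0.03 to 0.19) in cluster 2 and 0.09 (-0.00041 to 0.18) in cluster 3. Without clusters 5 and 6 it was 0.13, and in the deepest depth group 0.20.

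Itgae was at 152 CPM in cluster 5 and 426 CPM in cluster 6, and at or below 25.4 CPM in the others. In cluster 5 it stood at 66.9 CPM in cells with a receptor gene and 157 CPM in cells without, a log2 ratio of -1.23 (-2.69 to -0.09) from 6 and 249 UMIs. In the other 6 clusters the interval included 0. The ratio was below 0 in cluster 1 at -1.04, in cluster 2 at -1.95 (-5.07 to 0.04), from 2 and 27 UMIs, in cluster 4 at -0.76 (-1.81 to 0.17) and in cluster 6 at -0.41 (-0.95 to 0.10). It was above 0 in cluster 0 at 0.26 (-1.24 to 1.67), from 8 and 12 UMIs, and in cluster 3 at 1.21 (-0.14 to 2.45), from 9 and 17 UMIs. Without clusters 5 and 6 the ratio was -0.30. By depth it was -1.59, -2.01, -1.11 and -0.12 from the shallowest to the deepest depth group, the last with an interval of -0.63 to 0.38.

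Over all genes with at least 100 UMIs, few differed by 2-fold between cells with and without a receptor gene. Of 7879 such genes, 7 or 0.0888% were at least 2-fold higher in cells with a receptor gene and 53 or 0.673% were at least 2-fold lower, on log2 ratios with 1 CPM added to both sides (intervals are without it). For a receptor gene itself, cells were split by the other 5 genes. Of the 7, 4 were receptor genes and ranked 1 to 4: Klra6 at 56.8 CPM in cells with another receptor gene and 4.81 CPM in cells without (log2 ratio 3.31), Klra7 at 92.4 and 15.4 CPM (2.51), Klre1 at 54.5 and 11.3 CPM (2.18) and Klra3 at 57.3 and 18.4 CPM (1.59). Klra1 and Klra9 had fewer than 100 UMIs and were not ranked, with ratios of 2.66 and 1.91.

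The 3 other genes at least 2-fold higher were Ctla2b, a cysteine protease inhibitor, Lrrk1, a kinase, and Gem, a small GTPase. Ctla2b stood at 44.3 CPM in cells with a receptor gene and 18.1 CPM in cells without (log2 ratio 1.24, 0.97 to 1.60), Lrrk1 at 36.9 and 16.4 CPM (1.13, 0.83 to 1.51) and Gem at 29.7 and 14.1 CPM (1.02, 0.70 to 1.44). The next by rank among genes with the same direction in all 4 depth groups were Aqp9, a channel for water and glycerol, at 0.93, Arl4d, a small GTPase, at 0.87, Qrfp at 0.81, Golga2 at 0.80, Wdr95 at 0.79, Arsb, a lysosomal sulfatase, at 0.76, Cbarp at 0.73, Xcl1, a chemokine that attracts cross-presenting dendritic cells, at 0.72, and Gas7 at 0.72. Arl4d, Aqp9 and Wdr95 are among the genes that lead cluster 0, where receptor genes were most frequent.

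The 12 lowest by the same rule were led by Ctla4, an inhibitory receptor of activated T cells, at 2.97 CPM in cells with a receptor gene and 20.1 CPM in cells without (log2 ratio -2.41, -3.84 to -1.85). Cd74, the MHC class II invariant chain, had a ratio of -2.34, and Izumo1r, the folate receptor FR4, one of -2.25. Ctla4 and Izumo1r are among the genes that lead cluster 5, where receptor genes were fewest. The others were Igfbp4 and Tesc at -1.67 each, Cenpa at -1.46, Capg, an actin-capping protein, at -1.43, S100a4 at -1.39, Ptms at -1.38, Ephx1 at -1.35, Rgcc at -1.34 and Dapl1 at -1.30, the last with 80.8 CPM in cells with a receptor gene and 201 CPM in cells without.

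**Figure D5:**
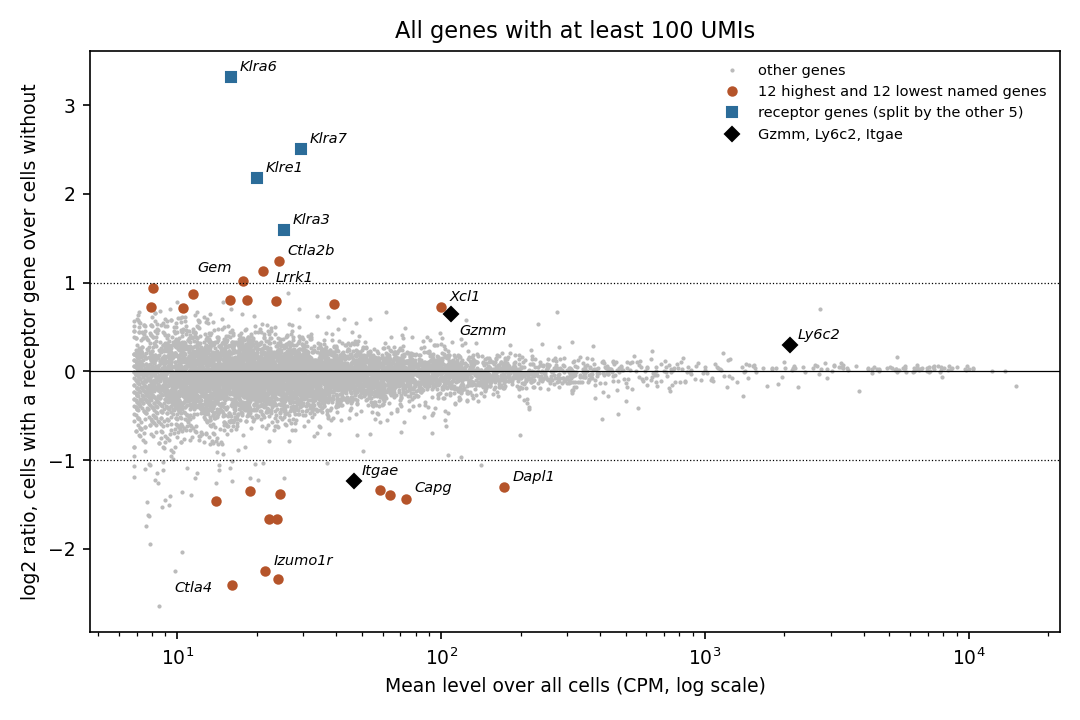
Each dot is 1 of 7879 genes, with the mean level over all cells in CPM (log scale) on the x axis and the log2 ratio of cells with a receptor gene over cells without, with 1 CPM added to both sides, on the y axis. Squares are receptor genes, each split by the other 5, diamonds are Gzmm, Ly6c2 and Itgae, and large dots are the 12 highest and 12 lowest named genes. Dotted lines mark 2-fold, and the 4 squares lie above the other genes.

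The neighbouring lectin receptors of the natural killer gene complex were mostly higher. Of 7 measured, 6 had a positive log2 ratio and 4 an interval above 0, with a median of 0.54. Over the 7875 genes with at least 100 UMIs that are not receptor genes, the median was -0.04. Of these, 40.3% were higher and 59.7% lower, and 4.67% had an interval above 0 and 9.0% one below. The counts of each list below are to be read beside these shares, which were not matched for UMI number. A gene with many UMIs can have an interval that excludes 0 at a small difference. Klrc2, which encodes the activating receptor NKG2C, stood at 11.0 CPM in cells with a receptor gene and 2.86 CPM in cells without (1.64, 1.22 to 2.67). Klrc1, for the inhibitory NKG2A, stood at 41.0 and 21.8 CPM (0.88), Klrk1, for NKG2D, at 50.8 and 33.0 CPM (0.61), and Klrd1, for the shared partner CD94, at 306 and 211 CPM (0.54). Clec2d was the 1 lower gene, at -0.20, and Cd69 was at 0.02.

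Genes that act with the receptors in signalling showed 1 large difference. Of 12 measured, 7 were higher and 5 lower, 4 had intervals above 0 and 1 below, against 4.67% and 9.0% over all genes, and the median was 0.06. Fcer1g, the FcR gamma adaptor, had 46 UMIs in cells with a receptor gene and 20 in cells without, or 13.7 and 1.79 CPM (log2 ratio 2.40, 2.15 to 3.77), and was found in 4.46% and 0.650% of cells. With 66 UMIs in all it was outside the ranking. Ptpn6, which encodes SHP-1, the phosphatase that inhibitory Ly49 receptors recruit, stood at 0.31, and Ptpn11, for the related SHP-2, at -0.43. Tyrobp, for the adaptor DAP12 of activating Ly49 receptors, had 15 UMIs in cells with a receptor gene and 52 in cells without (-0.05, -0.99 to 0.79).

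Fcer1g is also a marker of natural killer and myeloid cells, and the lists of other cell types were read with it. Of 6 measured natural killer markers, 4 were higher, 3 with an interval above 0, and 2 lower, against 40.3% and 59.7% over all genes, and their summed level was 358 CPM in cells with a receptor gene and 314 CPM in cells without. The defining markers Ncr1 and Klrb1c were not analysed here. Of 4 measured myeloid markers, 1 was higher, and Lyz2 had 1 UMI in cells with a receptor gene and 32 in cells without. Of 6 measured B cell markers, 4 were lower, with summed levels of 205 and 240 CPM, and of 2 measured CD4 T cell markers both were lower, with 4.76 and 17.7 CPM. The 1 gamma-delta T cell marker measured, Trgv2, stood at 11.3 and 8.67 CPM, and the 2 markers of NKT and MAIT cells, Cd1d1 and Mr1, summed to 16.1 and 19.3 CPM. Of the sort genes, Cd8a had a log2 ratio of -0.41 (-0.50 to -0.33) and Cd8b1 of -0.28 (-0.33 to -0.23), whereas Cd3e was at -0.08 and Cd3d at 0.02. The part of other cell types in the differences was not tested.

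The MHC class I genes, listed together with B2m, were slightly lower. Of 11 measured, 10 had a negative log2 ratio, 8 of them with an interval below 0, against 59.7% and 9.0% over all genes, and the median was -0.17. H2-K1 stood at 2057 CPM in cells with a receptor gene and 2322 CPM in cells without, and H2-D1 at 1576 and 1762 CPM, log2 ratios of -0.17 and -0.16. With 32914 and 25029 UMIs in all, both had intervals below 0 at these small differences. H2-T24 and H2-T22 were lowest, at -0.48 and -0.31.

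Transcription factors linked to Ly49 genes or to memory T cells mostly differed little. Of 19 measured, 7 were higher and 12 lower, near the 40.3% and 59.7% over all genes, 2 with an interval above 0 and 5 below, and the median was -0.02. Tbx21, the gene of T-bet, stood at 58.0 CPM in cells with a receptor gene and 42.3 CPM in cells without (0.45, 0.21 to 0.70), and Eomes at 102 and 80.5 CPM (0.34, 0.16 to 0.52). Tcf7, whose product TCF-1 acts at Ly49 genes in natural killer cells, stood at 254 and 289 CPM (-0.18, -0.29 to -0.07). Id2 was lowest at -0.62 and Tox was at -0.28.

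Genes of virtual memory cells, which are CD8 T cells of memory phenotype that arise without known antigen, were mostly higher. Of 18 measured, 14 had a positive log2 ratio and 11 an interval above 0, against 40.3% and 4.67% over all genes, with a median of 0.20. The chemokine gene Ccl5 stood at 3869 CPM in cells with a receptor gene and 2381 CPM in cells without (0.70, 0.67 to 0.73), and Il2rb, for the interleukin 2 and 15 receptor beta chain CD122, at 372 and 295 CPM (0.33). Itga4 was lower at -0.47 (-0.89 to -0.10) and Itgb1 at -0.18. This list holds Gzmm and Ly6c2, so it is not independent of the comparison above.

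Genes reported in Ly49-positive regulatory CD8 T cells were more often lower than higher. Of 13 measured, 9 were lower, 7 with an interval below 0, and 4 were higher, 1 with an interval above 0, with a median of -0.39. Over all genes 59.7% were lower and 9.0% had an interval below 0. Il2rb was higher at 0.33 and Fasl stood at 0.24 (-0.10 to 0.60). Pdcd1 had 1 UMI in cells with a receptor gene and 74 in cells without, and Ctla4 had 10 and 225. Ikzf2, for the transcription factor Helios, stood at 0.02. It is among the genes that lead cluster 5, where receptor genes were fewest, as are the lower Ctla4, Lag3 and Izumo1r.

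Residency, effector and interferon genes were mostly lower, as were 59.7% of all genes, of which 9.0% had an interval below 0. Of 14 residency genes measured, 11 were lower and 7 had an interval below 0, with a median of -0.30. This list holds Itgae, so it is not independent of the comparison above. Ccr8 stood at -1.81, whereas Xcl1 was higher and Cxcr6 was at -0.03. Of 16 effector genes, 12 were lower and 6 had an interval below 0, with a median of -0.44, and S100a4 and Lgals3 were lowest at -1.39 and -1.22, whereas Ccl5 and Tbx21 were higher. In the residency and effector lists, the lower genes Itgae, Itga1, Ccr10, Gzma, Gzmb, Lgals3, S100a4, Fgl2 and Id2 are among those that lead cluster 6. Receptor genes were few there, and no list was compared without clusters 5 and 6. All 13 interferon-stimulated genes measured were lower, 8 with an interval below 0, with a median of -0.32, from Ly6a at -1.05 to Bst2 at -0.06. Of 16 stem-like and quiescent memory genes, 11 were lower, a share near that over all genes, and 8 had an interval below 0, with a median of -0.16. Igfbp4 and Dapl1 were among these, and Itm2a was higher at 0.58.

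Of the 6 markers used for memory-like cells all were higher, 5 with an interval above 0, against 40.3% and 4.67% over all genes, with a median of 0.33. All 6 resident-like and all 6 interferon-responding-like markers were lower, with medians of -0.85 and -0.25, and of the 6 naive-like markers 4 were lower, with a median of -0.30. The memory-like markers include Gzmm and Ly6c2 and are all in the virtual memory list, and the resident-like markers include Itgae. Of the 6 resident-like markers, 5 are among the genes that lead cluster 6. The interferon-responding-like markers are all among the interferon-stimulated genes. These counts are therefore not independent of the comparisons above.

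The receptor genes were then set against the T cell clones, defined by identical receptor CDR3 sequences. Of 29 lymph node cells whose clone was also found in skin, 1 had a receptor gene, 3.45% (0.0873 to 17.8%), and it was Klre1. Of 98 cells in clones expanded in the lymph node only, 15 had one, 15.3% (8.83 to 24%), and of 2008 cells in clones seen once, 415 had one, 20.7% (18.9 to 22.5%). The median depth was 2305, 2595 and 4606 UMIs in these classes. After thinning, 0 of 23 cells (which at 3 counts allows up to 13%), 12.9% of 93 (6.85 to 21.5%) and 10.8% of 1968 (9.48 to 12.3%) had a receptor gene, and the exact interval for the first reached up to 14.8%. As deposited, the interval for clones also in skin lay below that for clones seen once, in classes of unlike depth. After thinning the intervals of all 3 classes overlapped. With 23 cells in the first class, a difference can be neither shown nor excluded.

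Same-clone cells were too few to decide whether they share receptor genes. There were 48 clones with at least 2 cells of the gene table, with 97 cells and 50 pairs of cells. Both cells had a receptor gene in 2 pairs where 0.943 were expected from depth, a ratio of 2.12 (0.257 to 7.66). In 10 pairs 1 cell had it and in 38 neither. In both pairs with it in both cells, the cells shared a gene. It was Klra6 in 1 pair (0.0608 expected) and Klra7 in the other (0.146 expected), and no pair shared another member.

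Among cells with 1 TRB sequence, the V segment TRBV12-2 was used in 58 of 510 cells with a receptor gene, 11.4% (8.75 to 14.5%), and in 157 of 2077 cells without, 7.56% (6.46 to 8.78%). The intervals overlapped narrowly. This segment was 1 of 22 seen on each side, of which only those with most cells were compared. A separate entry that names TRBV12-2 together with TRBV13-2 showed no such difference. It was used in 47 of 510 cells with a receptor gene, 9.2%, and in 187 of 2077 cells without, 9.0%. The other segments with most cells were close, such as TRBV12-1 at 8.04% in cells with a receptor gene and 7.46% in cells without and TRBV16 at 7.06% and 7.66%.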

How the data were processed

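Single-cell RNA and T cell receptor libraries of sorted CD8+CD44+ T cells were measured. The deposited gene table holds UMI counts as whole numbers for each gene in each cell, pooled over lanes by the authors. Bowtie, RSEM and mm10 appear in the submitters' processing notes without versions or roles. As deposited, genes were seen in 14 cells or more, cells had up to 2992 genes and the highest mitochondrial share was 4.99%. The deposited receptor tables list contigs with UMI counts. No column of another sample was left unused (0 columns).

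The family and the gene lists were chosen with earlier results of these data known. CPM are counts summed over cells per 1000000 summed UMIs. Log2 ratios over all genes carry a prior of 1 CPM, and those of Gzmm, Ly6c2 and Itgae do not. Shares have Clopper-Pearson intervals, levels exact Poisson intervals and ratios exact conditional intervals, at 95%. Thinning drew 1500 UMIs per cell without replacement. Steps were tested on simulated data.

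Named genes were the 6 receptor genes, Gzmm, Ly6c2, Itgae, and the 12 largest and 12 smallest log2 ratios. These were taken from genes with 100 or more UMIs that were detected in at least 5% of the higher side's cells and had the same direction in 4 depth groups of cells. The rule adds the 2 highest and 2 lowest genes with at least 50 UMIs of each list, of which 1 gene is not reported here. Further list genes were named for their known role, after their values were seen. Members, receptor segments, immunoglobulin, mitochondrial and ribosomal protein genes were left out of the 24.

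Cells were clustered with scanpy 1.11.5 and igraph 0.11.9 (Leiden, resolution 1, 2000 variable genes, 30 components, 15 neighbours), leaving out 73 genes. No doublet caller was run, and results without the 315 barcodes with 2 or more TRB sequences are given as an alternative. Clones were cells with 1 TRB sequence that had the same CDR3 nucleotides in TRB and TRA, with ties between TRA contigs broken by contig name. In all, 2964 cells had a contig and 2135 a clone. Sequences are from RefSeq (GRCm38.p6) and GENCODE M21, both of the mm10 build.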

Additional observations from a re-analysis of the deposited data

How the results depend on the processing

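With 1 library there is no replicate error, and depth limits every share: most positive cells held 1 UMI, and a cell without a UMI is not shown to lack the receptor. No paired analysis was possible, because the lanes are runs of the same library and not separate animals. No result comes from a test across samples.

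The share of cells with at least 1 receptor gene, 19.9% as reported, was 10.7% after thinning, 7.65% when 2 UMIs were required and 17.3% without Klre1, and the share with at least 2, 6.22%, was 1.81%, 1.35% and 4.01%. The ratio over all pairs, 2.98, was 3.61 after thinning, 4.97 at 2 UMIs and 2.38 with clusters in the expectation. The last of these, the results without clusters 5 and 6 and those in the deepest depth group were chosen after seeing the data. Without the pairs among Klra3, Klra6 and Klra9, also added then, the ratio was 3.01, and without barcodes with 2 or more TRB sequences it was 3.12.

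The log2 ratio of Gzmm was 0.11 within cluster 0 and 0.45 without clusters 5 and 6. That of Ly6c2 was 0.34 under median-of-ratios scaling, which moved all genes by -0.04, and 0.072 within cluster 0, 0.13 without clusters 5 and 6 and 0.20 in the deepest depth group. That of Itgae was 0.26 within cluster 0, a change of sign on 8 and 12 UMIs, -0.30 without clusters 5 and 6 and -0.12 in the deepest depth group.

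Of genes at least 2-fold higher there were 17 with no filter on low counts and 4 with a prior of 10 CPM, and of those lower 115 and 9, and 87 after thinning. The share in clones also found in skin was 0% after thinning, and that in clones seen once in the lymph node was 10.8%. The causes of these changes were not tested.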
